A study of Mus musculus with 3 samples.

Results

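A set of 9 genes that mark or regulate progenitors of the second heart field was followed in Hopx-null and Hopx-heterozygous mouse embryoid bodies at day 8 of cardiac differentiation. The set holds the transcription factors Isl1, Tbx1, Six2, Foxc1 and Foxc2, the cofactor Eya1, the growth factor Fgf10, the chromatin remodelling subunit Smarcd3 (Baf60c) and the receptor Pdgfra. The members were named as a gene list rather than picked by a threshold on these values, but with earlier results of these data known. Array features were assigned to them through the RefSeq accession each carries. All 9 were on the array, through 10 probes, and all 9 were well above background in both channels on all 3 arrays, so that none entered the test through a single genotype. They are 9 of 19815 genes tested.

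The null group was Hopx-/- embryoid bodies and the group it was set against was Hopx+/- embryoid bodies, which carry 1 inactivated copy of the gene themselves, so no comparison with wild type was made. Embryonic stem cells of each genotype came from blastocysts, were grown on feeder cells, and were made into embryoid bodies (aggregates that form derivatives of several germ layers) in hanging drops and then plated. Both genotypes were plated in the same cardiac medium, supplemented with FGF10 (12.5 ng/ml), bFGF (10 ng/ml), VEGF (5 ng/ml), ascorbic acid and Glutamax. Each of 3 replicates was a 2-colour Agilent array with RNA of a null culture in a channel and RNA of a heterozygous culture in the other. Whether replicates were separate cell lines or separate differentiations is not stated in the labels, so the p-values rest on the spread of these 3 pairs, which may be technical, and genotype cannot be told apart from a difference between lines.

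The second heart field is a pool of mesodermal progenitors next to the first heart field, in and behind the pharynx. It feeds cells into the growing heart tube and builds the outflow tract, the right ventricle and much of the atria. Isl1 marks these progenitors and is switched off as they become muscle, Tbx1 keeps them dividing and patterns the outflow tract, and Fgf10 is expressed by their anterior part. Foxc1 and Foxc2 act upstream of Tbx1, and Eya1 is a coactivator that homeodomain factors of the field recruit. Smarcd3 lets cardiac factors act on chromatin, and Pdgfra is found on cardiac mesoderm among many other mesodermal cells.

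All signed values are log2 ratios of null over heterozygous, with the ratios of replicate 3 turned, because the direction of that array is not settled. By its labels every array has null RNA in Cy5, yet over the probes kept the Cy5 over Cy3 ratios of that array ran against those of replicate 1 (r = -0.903) and replicate 2 (r = -0.901), while replicates 1 and 2 ran together (r = 0.939) (probes are not independent replicates). The authors' deposited value table also runs opposite to the scanner ratio on replicate 3 (r = -0.941) and along it on replicates 1 and 2 (r = 0.959 and r = 0.951), and its direction was taken. Hopx, the inactivated gene, read 7.57 and 7.63 log2 intensity units in the null channel of replicates 1 and 2, against 10.55 and 10.60 in the heterozygous channel, in the direction of their labels. On replicate 3 it goes against the label, since the channel labelled null read 10.59 and the channel labelled heterozygous 7.15. From here on, null and heterozygous values of replicate 3 are those after turning, so every direction drawn from it rests on that choice. With it turned Hopx fell by 3.13 (SE 0.11, adjusted p = 2.8e-07 by limma), without replicate 3 it fell by 2.97, and with replicate 3 as labelled its mean was -0.83 (not called), although no source used here places the probe inside or outside the inactivated stretch. Between 61.9% and 72.9% of the 43020 non-control spots of an array were well above background in a channel. Precision is limited by having 3 arrays.

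Promoter sequence is shown for Isl1 and Tbx1, which fell, and for Six2, which rose, so that the upstream DNA of genes that moved in opposite directions can be compared. Each run holds the 250 bases before the annotated start (RefSeq, GRCm38.p6, gene strand, 5′ to 3′). Capitals mark letters of the 5 motifs searched on both strands, namely GTAAACA for forkhead, AGGTGT for T-box, AGATAA for GATA factors, CTTTGAT for TCF/LEF and TCAGGTTT for Six2-type factors, none of which overlapped another here.
Isl1, chr13:116309689-116309938, minus strand: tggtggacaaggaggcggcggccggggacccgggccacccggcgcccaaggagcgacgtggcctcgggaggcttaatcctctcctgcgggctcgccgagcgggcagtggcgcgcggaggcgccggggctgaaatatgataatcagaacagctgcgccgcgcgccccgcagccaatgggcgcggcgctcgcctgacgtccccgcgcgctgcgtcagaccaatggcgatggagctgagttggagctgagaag
Tbx1, chr16:18590672-18590921, minus strand, the start further upstream of 2 in the table: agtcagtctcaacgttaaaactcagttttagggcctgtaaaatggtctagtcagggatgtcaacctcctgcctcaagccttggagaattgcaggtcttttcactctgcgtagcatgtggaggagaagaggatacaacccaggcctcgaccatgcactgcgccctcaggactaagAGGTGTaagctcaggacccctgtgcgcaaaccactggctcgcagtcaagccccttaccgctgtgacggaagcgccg
Six2, chr17:85688255-85688504, minus strand: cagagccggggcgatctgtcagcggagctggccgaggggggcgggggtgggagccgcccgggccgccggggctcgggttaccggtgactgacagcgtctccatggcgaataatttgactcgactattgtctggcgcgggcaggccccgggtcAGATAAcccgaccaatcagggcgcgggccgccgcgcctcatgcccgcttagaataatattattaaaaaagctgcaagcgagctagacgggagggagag

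Promoters were found for 7 of the 9 genes, not for Foxc2 and Eya1. The Isl1 stretch was 71.2% G or C with 33 CpG, the Six2 stretch 64.8% with 26 CpG and the Tbx1 stretch shown 54.4% with 10 CpG, where the medians of 32536 promoter stretches were 52.4% and 6 CpG. The Six2 stretch held the GATA letters 98 bases before the start, and the Tbx1 stretch shown held the T-box letters 76 bases before it. The stretch at the other Tbx1 start was 67.2% G or C with 17 CpG and held none of the 5 motifs. GATA letters are in 9.97% of all stretches and T-box letters in 11.9%. Pdgfra also held the T-box letters, and Fgf10 held the forkhead letters, which are in 3.17% of stretches. The Six2-type letters (1.17% of stretches) and the TCF/LEF letters (3.21%) were in none of the 7 genes' stretches. A match is a description of letters only.

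In null embryoid bodies the progenitor factors Isl1 and Tbx1 and the remodelling subunit Smarcd3 fell by 1.06 to 1.30 on the log2 scale, and Pdgfra fell by less. Six2, Foxc2 and Foxc1 rose, and Fgf10 and Eya1 did not pass the test. Of the 9 genes, 4 were called lower and 3 higher (limma adjusted p under 0.05), and 5 of these 7 changed at least 2-fold. That count was 3 with median centring without loess, where Isl1 and Smarcd3 both stood at -0.79, and 3 in the authors' value table, where Isl1 stood at -0.93 and Foxc2 at 0.98. Over all genes tested 60.3% were called, 30.1% lower and 30.2% higher, and 10.9% were called with a change of at least 2-fold. The 7 of 9 is not read as particular to these genes against that background. The median ratio of the 9 was -0.07, beside 0.0034 over all genes tested, since the set moved in both directions.

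**Figure D1:**
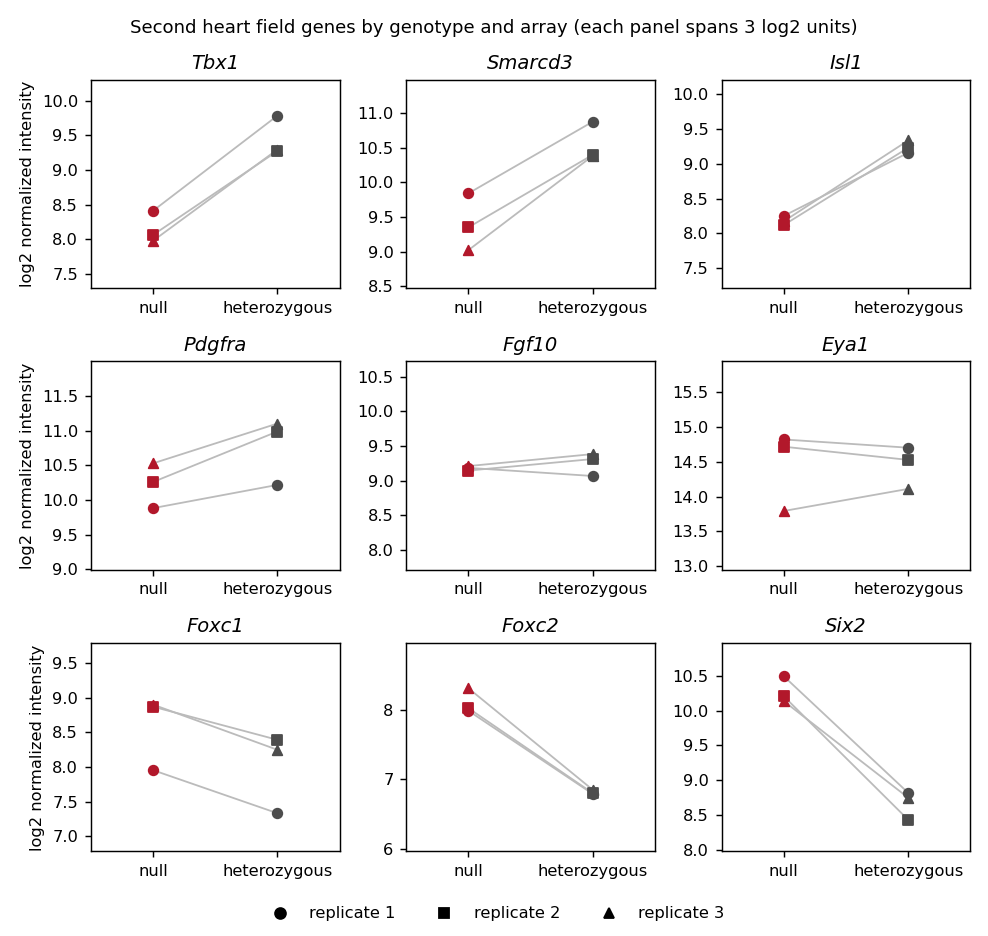
Log2 normalized intensity (y axis, after loess and scaling between arrays) of 9 genes in null (red, left) and heterozygous (grey, right) channels, with a line joining the channels of an array and a marker shape for each of 3 replicates. Isl1, Tbx1, Smarcd3, Foxc2 and Six2 have separate groups, while for Pdgfra and Foxc1 the lines run parallel but the groups overlap.

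Isl1, the LIM homeodomain factor that marks the progenitors, read 8.25, 8.12 and 8.17 log2 units in the null channel of replicates 1, 2 and 3, against 9.16, 9.23 and 9.34 in the heterozygous channel. All 3 null values lay below all 3 heterozygous values. It fell by 1.06 (SE 0.09, adjusted p = 1.8e-05 by limma), a 2.09-fold lower signal. The Isl1 probe sits on each array in 10 copies, and the SD between copies was 0.071, 0.070 and 0.066 on replicates 1, 2 and 3. The 3 array means of -0.91, -1.11 and -1.16 had an SD of 0.13, so the fall was larger than both kinds of spread.

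Tbx1, the T-box factor whose loss in mice leaves the outflow tract undivided, read 8.41, 8.06 and 7.98 in null channels, against 9.78, 9.27 and 9.29 in heterozygous channels. The groups did not overlap. It fell by 1.30 (SE 0.08, adjusted p = 4.5e-06 by limma), the largest fall of the 9 genes in this fit, with array ratios of -1.37, -1.21 and -1.32. Its single probe is annotated to a single Tbx1 transcript, so other isoforms may not be measured.

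Smarcd3, the Baf60c subunit that links the BAF remodelling complex to cardiac factors, read 9.84, 9.35 and 9.02 in null channels, against 10.87, 10.40 and 10.38 in heterozygous channels. The groups did not overlap. It fell by 1.15 (SE 0.10, adjusted p = 1.8e-05 by limma), with array ratios of -1.03, -1.05 and -1.36.

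Pdgfra, a receptor tyrosine kinase of early mesoderm and mesenchyme, read 9.88, 10.26 and 10.53 in null channels, against 10.22, 10.99 and 11.10 in heterozygous channels. The groups overlapped, because replicate 1 was low in both genotypes, but the null channel was lower on each array. It fell by 0.55 (SE 0.10, adjusted p = 0.0014 by limma), with array means of -0.34, -0.73 and -0.57 over 10 spots each and an SD between spots of 0.083, 0.077 and 0.097. The call was lost with median centring without loess (-0.18, adjusted p = 0.285), with channels treated as unpaired samples, without the replicate block (adjusted p = 0.139), and with an ordinary t statistic (adjusted p = 0.0932).

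Six2, a homeodomain factor of progenitors in the second heart field, kidney and head mesenchyme, read 10.50, 10.21 and 10.14 in null channels, against 8.82, 8.43 and 8.75 in heterozygous channels. Every null value lay above every heterozygous value. It rose by 1.62 (SE 0.10, adjusted p = 3.3e-06 by limma), 3.07-fold, and 98.7% of the genes tested had a lower ratio. Its rise was above that of Foxc2 here, but below it with an offset of 0 (1.76 against 1.92), with processed signals (1.85 against 2.21) and as the mean of both Six2 probes (1.02 against 1.30). Another Six2 probe was also higher in null channels on all 3 arrays, by 0.29, 0.57 and 0.41, with a mean of 0.42 (SE 0.09, adjusted p = 0.0035). That probe was dim, at 6.80, 6.83 and 6.92 in null channels and 6.51, 6.26 and 6.51 in heterozygous channels, where the lowest signals well above background were 5.83 to 6.02. Its ratio was 0.91 with a normexp offset of 0 in place of 50, 1.25 from processed signals and 0.16 in the authors' value table, so the direction was shared by both probes but the size was not.

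Foxc1 and Foxc2 are forkhead paralogs with overlapping roles in heart, vessel and somite formation. Foxc2 read 7.99, 8.02 and 8.31 in null channels, against 6.79, 6.80 and 6.85 in heterozygous channels, with no overlap. It rose by 1.30 (SE 0.09, adjusted p = 6.9e-06 by limma), a 2.46-fold higher signal. The heterozygous channel was close to the floor of detection, and the ratio was 1.92 with an offset of 0 and 2.21 with processed signals, so its size depends on the background correction.

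Foxc1 read 7.96, 8.87 and 8.90 in null channels, against 7.34, 8.39 and 8.25 in heterozygous channels. Replicate 1 was lower than the others in both genotypes, and the groups overlapped, but each array had the null channel higher, by 0.62, 0.48 and 0.65. Foxc1 rose by 0.58 (SE 0.08, adjusted p = 4.2e-04 by limma), and the call was lost with channels treated as unpaired samples, without the replicate block (adjusted p = 0.224). The Foxc1 ratio was below the Foxc2 ratio on 3 of 3 arrays, by 0.71 on average (SD 0.12, n = 3). An exact sign-flip test over the arrays gave p = 0.25 (two-sided), the smallest that 3 arrays allow.

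Fgf10, the ligand secreted by anterior progenitors, read 9.18, 9.15 and 9.21 in null channels, against 9.07, 9.31 and 9.38 in heterozygous channels. The groups overlapped, and array ratios were 0.12, -0.17 and -0.17, of mixed sign. The mean was -0.07 (SE 0.09, adjusted p = 0.52 by limma), with a 95% interval of -0.29 to 0.14. On 10 spots an array the SD was 0.078, 0.099 and 0.084, so replicate 1 differed from the others by more than the spread between spots. Both media held FGF10 protein, which the array does not measure.

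Eya1, a phosphatase and transcriptional coactivator that partners homeodomain factors such as Six2, was measured by a single very bright spot, with foreground medians of 16036.5 to 36275.5 on the 3 arrays and none saturated. It read 14.82, 14.72 and 13.79 in null channels, against 14.70, 14.53 and 14.11 in heterozygous channels, and the groups overlapped. Its ratios were 0.12, 0.19 and -0.32, with a mean of -0.0034 (SE 0.11, adjusted p = 0.98 by limma) and a 95% interval of -0.26 to 0.25. After loess, and before replicate 3 was turned, Cy5 was the higher channel on every array, by 0.12, 0.19 and 0.32. The sign of the normalized ratio thus followed the dye on all 3. In foreground medians Cy3 was the brighter on replicate 3 (18250 against 16036.5), and Cy5 on replicates 1 and 2. With a dye term in the fit, added after the data were seen, the Eya1 ratio was -0.08 (adjusted p = 0.41). With median centring without loess it was 0.45 (adjusted p = 0.0229), the other direction, and without replicate 3 it was 0.15 (adjusted p = 0.19).

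**Figure D2:**
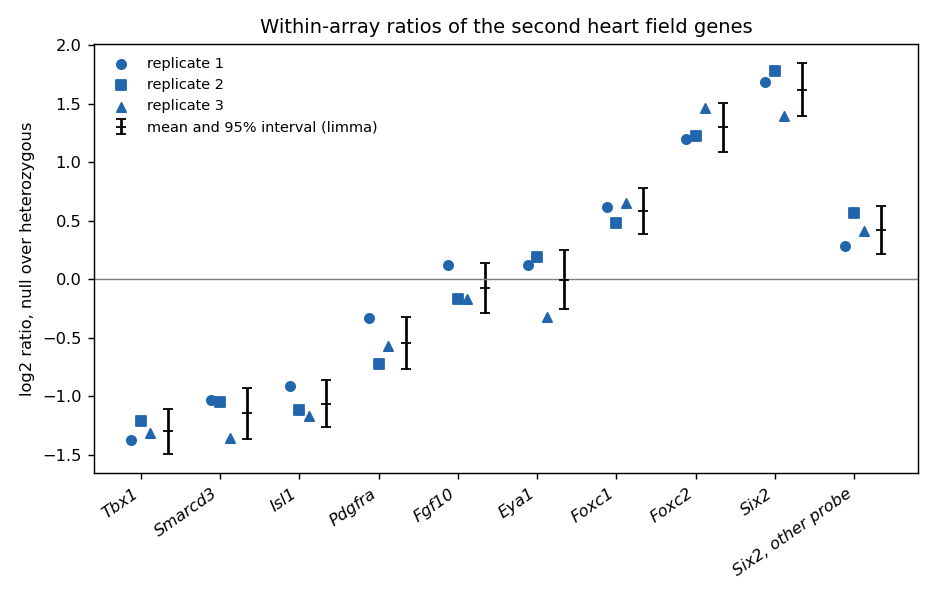
Log2 ratio of null over heterozygous (y axis) on each array (blue markers, a shape per replicate) with the mean and its 95% interval from limma (black), for 9 genes and the dimmer Six2 probe. Tbx1, Smarcd3, Isl1 and Pdgfra lie below 0 on all 3 arrays, Foxc1, Foxc2 and Six2 above 0 on all 3, and Fgf10 and Eya1 on both sides.

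The sign of the ratio was the same on all 3 arrays for 7 of the 9 genes, as for 75.4% of genes tested. Groups of channel levels did not overlap for 5 of the 9 and for 52.8% of genes tested, beside 60.3% called. From replicates 1 and 2 alone, where the labels and the authors' value table run the same way, the same 7 genes were called. There Isl1 stood at -1.01, Tbx1 at -1.29, Smarcd3 at -1.04, Pdgfra at -0.53, Six2 at 1.73, Foxc2 at 1.21 and Foxc1 at 0.55. Both arrays have null RNA in Cy5, so that fit cannot tell genotype from dye. A dye term, added after the data were seen, gave -1.09 for Isl1, -1.30 for Tbx1, -1.20 for Smarcd3 and -0.55 for Pdgfra. It gave 1.56 for Six2, 1.34 for Foxc2 and 0.60 for Foxc1, with the turned replicate 3 alone in the other dye order. With replicate 3 as labelled, its values change sign and the means become -0.29 for Isl1, -0.42 for Tbx1, -0.24 for Smarcd3, -0.16 for Pdgfra, 0.69 for Six2, 0.32 for Foxc2, 0.15 for Foxc1, 0.04 for Fgf10 and 0.21 for Eya1. With that sign limma called 0 genes, and 61 genes, none of the 9 among them, had an unadjusted p under 0.05.

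**Figure D3:**
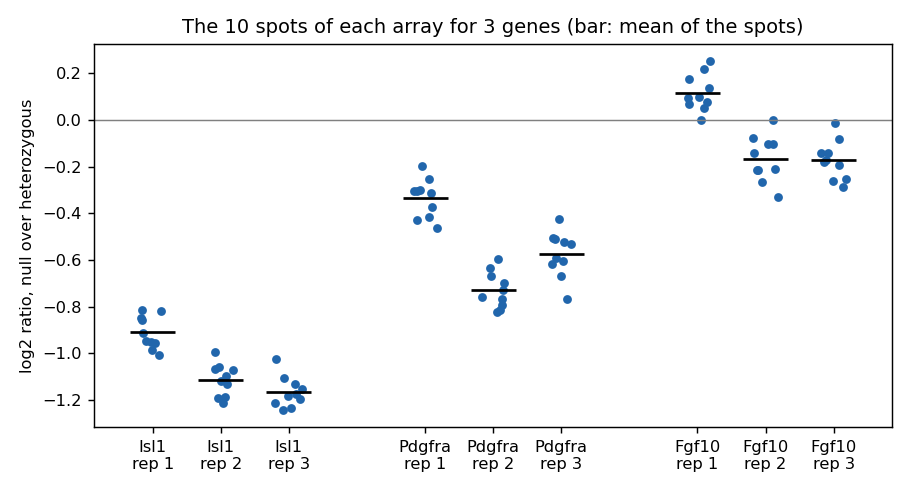
Log2 ratio of null over heterozygous (y axis) of each of the 10 spots (blue points) for Isl1, Pdgfra and Fgf10 on replicates 1, 2 and 3, with the mean of the spots as a bar. All Isl1 and Pdgfra spots lie below 0 on every array, while the Fgf10 spots of replicate 1 lie above 0 and those of replicates 2 and 3 below it.

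By the distance between array ratios, the named genes nearest to Isl1 among 14763 compared over 3 arrays were Zfp457 (Euclidean distance 0.028), Vit (0.060) and Pram1 (0.065). Those nearest to Six2 were Gm15706 (0.066), Pla2g10 (0.10) and Tti2 (0.12). With 3 points a gene, such likeness describes these arrays only.

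Around the 9 genes, lists of partners, ligands and targets were read in the same fit. Among 25 partners of Isl1 and Tbx1 and other factors of the field, 10 were lower, 6 higher and 9 not called, with a median of -0.09. The lowest were Nkx2-5, a homeodomain factor that second heart field cells need to become muscle, at -2.23 (SE 0.15), Wnt11, a non-canonical Wnt of the outflow tract, at -1.62 (SE 0.15), Foxa2, a forkhead factor of endoderm and node, at -1.54 (SE 0.13) and Gata4, a core cardiac zinc finger factor, at -1.52 (SE 0.10). Mef2c, a muscle factor with an enhancer bound by Isl1, stood at -0.09 (SE 0.08, adjusted p = 0.38) and was not called. Its probe was dim, at 6.71, 6.64 and 6.81 in null channels and 6.85, 6.74 and 6.83 in heterozygous channels. The lowest signals well above background were 5.83 to 6.02, so this value does not settle whether Mef2c changed. Gbx2, among those called higher, passed the filter only through null channels. Median centring without loess puts the median of all genes at 0.23, and there 7 of the partners were lower and 10 higher.

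Of 17 Fgf ligands, receptors and feedback genes tested, 8 were higher and 4 lower (median 0.20), the authors' value table gave 5 higher, and the ordinary t statistic gave 2 higher and 2 lower. Fgf8, the ligand that Tbx1 drives in the anterior field, rose by 1.30 (SE 0.14) and Fgf4, a ligand of the primitive streak, by 1.66 (SE 0.13). Spry2, a feedback inhibitor of receptor signalling, fell by 1.97 (SE 0.09) and Fgfr3 by 1.23 (SE 0.10). Spry4 was not tested because its signal was too low.

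Of 7 relatives of Six2 and Eya1 and their Dach partners tested, 3 were lower, 0 higher and 4 not called (median 0.0022). Eya2, a paralog of Eya1, fell by 1.23 (SE 0.08), Dach1, a corepressor that partners such factors, by 0.72 (SE 0.08) and Six5 by 0.59 (SE 0.09). With median centring without loess 2 were lower and 2 higher, and Six5 lost its call (adjusted p = 0.11).

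Of 23 subunits of BAF-type remodelling complexes, 11 were higher, 4 lower and 8 not called (median 0.15). Smarcd1, a paralog of Smarcd3, rose by 0.57 (SE 0.08) and Actl6a, the actin-like subunit of progenitor complexes, by 1.08 (SE 0.10). Dpf3, which like Smarcd3 is a heart and muscle subunit, fell by 0.76 (SE 0.11). Pbrm1 fell by 0.65 (SE 0.08), although another of its probes was called in the opposite direction. The same holds for Arid2, among those higher (0.33, SE 0.10). With the mean over a gene's kept probes the number higher was 9. Median centring without loess gave 17 higher and 2 lower, the authors' value table gave 4 higher, and without replicate 2 the number higher was 7.

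Of 5 Pdgf ligands and receptors beside Pdgfra, 3 were lower and 1 higher (median -0.37). The number lower was 1 with median centring without loess, 1 without the replicate block and 1 with the ordinary t statistic. Pdgfa, a ligand of Pdgfra, fell by 1.38 (SE 0.09) and Pdgfc, another ligand of it, by 0.75 (SE 0.14), while Pdgfrb, the other receptor, was at 0.21 (SE 0.10, adjusted p = 0.11). Pdgfb fell by 0.37 (SE 0.10) but stood at -0.24 without replicate 3 (adjusted p = 0.0501, not called). Heterozygous signal of Pdgfd never cleared the background threshold, so its rise has only a bound of at least 1.20-fold, and its call (adjusted p = 0.0368) was lost without replicate 1, without replicate 2 and without replicate 3.

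**Figure D4:**
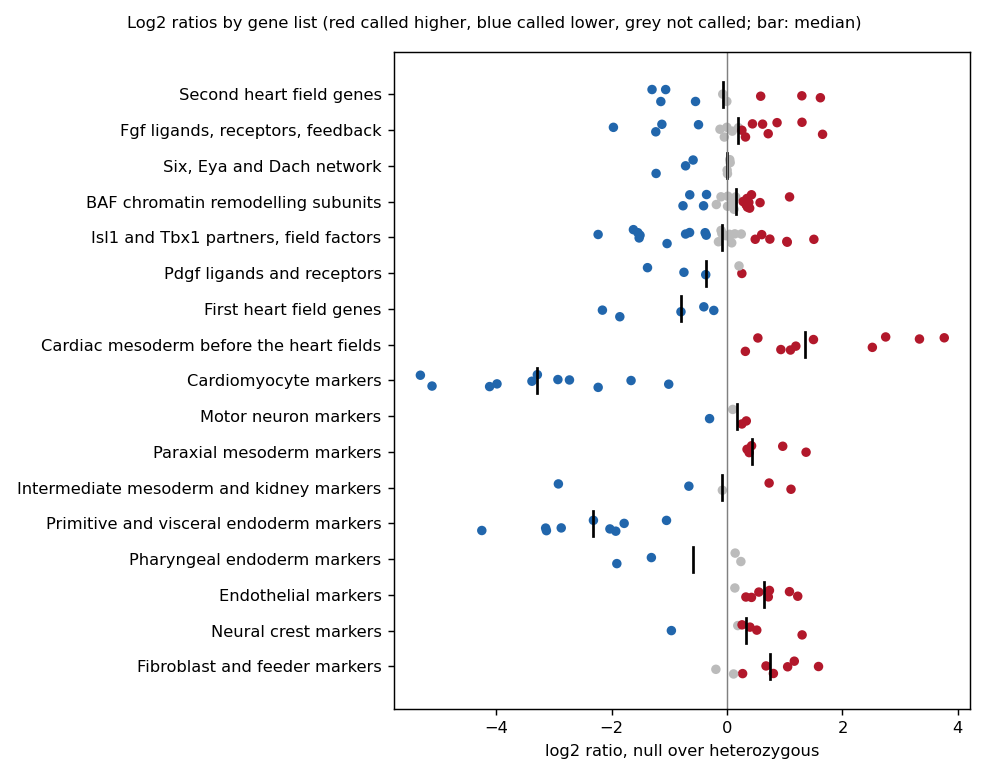
Log2 ratio of null over heterozygous (x axis) of each gene tested in the 9-gene set and in 16 wider lists (rows), with genes called higher in red, called lower in blue and not called in grey, and the median as a bar. The second heart field genes lie on both sides of 0, cardiomyocyte and visceral endoderm markers all lie below it, and genes of early cardiac mesoderm all above it.

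The first heart field and early mesoderm give the nearest comparison for direction. Of 5 genes tested from the first heart field list, 5 were lower and 0 higher (median -0.80). Nppa stood at -2.16 (SE 0.10), Irx4 at -1.86 (SE 0.08) and Tbx5, which patterns that field, at -0.80 (SE 0.09). Without replicate 2 the number lower was 3, and in the authors' value table it was 3. Cardiomyocyte markers were lower too (11 of 11). Whether the falls in this list are particular to the first heart field was not tested. Of 10 genes of cardiac mesoderm before the fields, 10 were higher and 0 lower (median 1.34), with Mesp1, an early cardiac mesoderm factor, at 3.76 (SE 0.09) and Eomes, which acts upstream of it, at 2.52 (SE 0.11). T, Mixl1, Mesp2 and Cer1 passed the filter only through null channels, where they were higher, so their direction was favoured by the filter. With both channels required above background those genes were not tested, and the other 6 were called. Heterozygous signal of T and Mixl1 never cleared the background threshold, so their rises have only bounds of at least 6.72-fold and 1.91-fold. A difference between these lists and the 9 genes was not tested.

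Several of the 9 genes are also expressed by other cells of embryoid bodies, whose markers moved as follows. In bulk RNA, fewer cells of a type and less RNA per cell cannot be told apart. Cardiomyocyte markers were lower in 11 of 11 genes, and their summed signal was 14.46 to 14.96 log2 units in null channels against 17.54 to 17.85 in heterozygous channels. Of these genes, Tnnt2 had no usable spot on replicate 1, so the sum of that array leaves it out. The Tnnt2 call rests on replicates 2 and 3. Tnni3 passed the filter only through heterozygous channels. Primitive and visceral endoderm markers, of a tissue that shares Pdgfra, were lower in 9 of 9 (13.59 to 14.0 in null, 15.96 to 16.45 in heterozygous channels). Fibroblast and feeder markers, of cells that also carry Pdgfra, were higher in 6 of 8 (15.61 to 16.15 in null, 14.33 to 15.11 in heterozygous channels), and none was lower. Col1a1 had no usable spot on replicate 1 and Postn none on replicate 2, so the sums of those arrays leave them out. The Postn call rests on replicates 1 and 3. Ratios of Col1a1, not called, were -0.56 on replicate 2 and 0.18 on replicate 3, of mixed sign.

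For Foxc1 and Foxc2, which paraxial mesoderm and vessels share, 5 of 5 paraxial mesoderm genes tested were higher (9.88 to 10.10 in null, 9.18 to 9.33 in heterozygous channels), with Msgn1, Pax7, Uncx and Myf5 too dim to test, and 3 were called without replicate 3. Of the 5, Meox1 and Meox2 were above background in heterozygous channels on 0 and 1 arrays. They passed the filter only through null channels, where they were higher, so their direction was favoured by the filter. Endothelial markers were higher in 7 of 8 (11.78 to 12.01 in null, 10.91 to 11.22 in heterozygous channels), and neural crest markers in 4 of 6, with 1 lower (11.68 to 11.96 in null, 12.09 to 12.26 in heterozygous channels). The lower gene, Snai2 (-0.96, SE 0.12), was the brightest of the list, so the sum is lower in null channels although 4 of 6 were called higher. Foxd3, among the neural crest genes called higher, also passed the filter only through null channels. Ets1, another of them, has a further probe that was called in the opposite direction. With the mean over a gene's kept probes Ets1 stood at -0.045, and the number higher was 3. For Six2, which kidney progenitors share, 2 of 5 intermediate mesoderm and kidney genes were higher and 2 lower (12.63 to 12.67 in null, 14.88 to 15.24 in heterozygous channels), with Pax2, Pax8, Ret and Emx2 too dim to test. That sum is mostly Cited1, which read 12.18, 12.14 and 12.04 in null channels, against 15.20, 15.10 and 14.82 in heterozygous channels, while Sall1 rose by 1.11 (SE 0.10) and Wt1 by 0.73 (SE 0.09), and the list's median was -0.08.

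For Isl1, which motor neurons and pharyngeal endoderm share, 2 of 4 motor neuron genes tested were higher and 1 lower (8.43 to 8.46 in null, 8.31 to 8.39 in heterozygous channels). Mnx1, Lhx4 and Chat were not tested, and Lhx3 and Olig2 stayed at background in all heterozygous channels. Isl2, the gene called lower, passed the filter only through heterozygous channels. Without replicate 2, none of the 4 was called higher or lower. Pharyngeal endoderm markers were lower in 2 of 4, none higher (8.79 to 9.28 in null, 9.48 to 9.88 in heterozygous channels), with Pax1 at -1.91 (SE 0.09), while median centring without loess called 2 higher. Pax9, the other gene called lower, passed the filter only through heterozygous channels. The part of these cell types in the ratios of the 9 genes was not tested.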

How the data were processed

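Per the file headers, the deposited scanner files hold the spot intensity in both channels with local backgrounds and flags, made by Agilent Feature Extraction 11.5.1.1, whereas version 8.5.1.1 stands in the submitters' processing notes. All 3 arrays share a slide and a scan, so neither could be a block. The authors also deposited a value table of unstated scale, taken here as log2 ratios of the 2 channels because of slopes of 0.943, 0.948 and -0.945 against the scanner ratios of bright probes (mean log2 intensity above 11) and column medians of -0.10, -0.11 and 0.07. Its normalization and centring are unknown.

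With limma 3.58.1 in R 4.3.3, foreground medians were corrected by normexp (offset 50), log2 ratios normalized by loess within arrays with control and outlier spots at weight 0, and spots of a probe averaged. Channel levels were scaled by Aquantile. A probe was kept if, in 1 genotype at least, 0.5 or more of its spots were well above background on each of the 3 arrays (24575 of 39429). Each ratio was tested against 0 across all probes kept with lmFit, eBayes and Benjamini-Hochberg adjustment, and a gene took its brightest probe. SEs are moderated. Symbols came from unversioned accessions in a RefSeq table (GRCm38.p6), which named 28025 probes (71.1%). The array design is on mm9. The fit was tested on simulated data. Members, lists and rules were chosen with earlier results of these data known. Genes named are the 9, Hopx, up to 4 called genes of each list with the largest change, and the 3 nearest to Isl1 and Six2. Mef2c, Pdgfrb, Spry4, Arid2, Col1a1, Postn, Tnnt2 and genes not tested or dim are named outside that rule, after their values were seen. Some genes of the lists are not reported here. A promoter is the 250 bases before a gene's start.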

Additional observations from a re-analysis of the deposited data

How the results depend on the processing

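Of 16 alternatives, 15 were planned, and the dye term was added after the data were seen. Causes were not tested unless the setting's construction gives them. The 7 members called kept their direction in all 16, but several settings could not turn it, since the members' ratios there equal the main fit. These were no dim filter, both channels above background, the ordinary t statistic, and separate channels with or without the replicate block. The mean over kept probes changed only Six2 among the members. With replicate 3 as labelled the other arrays are untouched, so a gene with like ratios on all arrays keeps its sign. In 13 of the 16, 7 members were called, 1 of these (median centring without loess) with Eya1 in place of Pdgfra. The exceptions were 6 with the ordinary t statistic, 5 without the replicate block, channels being unpaired samples (Foxc1 and Pdgfra lost), and 0 with replicate 3 as labelled (0 higher, 0 lower), which follows from an array of opposite sign. The replicate block with separate channels gave 7, since it equals the ratio. Without each replicate in turn 7 members were called. Over all genes tested, 11948 were called, 9838 to 11878 without a replicate, 3994 with the ordinary t statistic (1963 higher, 2031 lower) and 0 with replicate 3 as labelled (0 and 0), where 61 had an unadjusted p under 0.05. The authors' table gave 3912 higher, and median centring without loess 3007 lower and 8543 higher, against 5967 and 5981. Of the genes in the wider lists, 117 were called, 47 with the ordinary t statistic and 0 with replicate 3 as labelled. The 117 is a count without a share, where 60.3% of all genes tested were called. It is not read as particular to the lists, which were chosen with earlier results known. Foxc1 minus Foxc2 was -0.71, and -0.78 to -0.66 without a replicate. It was -0.53 in the authors' table, -0.89 without background correction, -1.20 with an offset of 0, -1.40 with processed signals and -0.17 with replicate 3 as labelled.

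Signs turned for Fgf10 (0.23 with median centring, 0.041 with replicate 3 as labelled), Eya1 (0.017 in the authors' table, 0.45 with median centring, 0.21 with replicate 3 as labelled, 0.15 without replicate 3, and -0.10 to 0.15 over the 3 fits that leave out a replicate), Ets1 (-0.045 as the mean of its probes, which disagree) and, with replicate 3 as labelled, Meox2 (-0.13), Pdgfb (0.052) and Pdgfd (-0.030). The ordinary t statistic ended the call of 35 of the 76 genes picked by the naming rule. Those 76 include Fgf10 and Eya1, which had no call to lose, and genes not reported here. Signal over background limits dim probes such as Foxc2 and the dimmer Six2 probe. With no filter on dim probes, or with both channels required above background, the 7 members kept their calls. Their ratios are unchanged there, because all 9 genes were above background in both channels on all 3 arrays. These settings therefore do not check the effect of dimness on the 9.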
